A study of Homo sapiens with 18 samples.

Results

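Heparan sulfate modifying enzymes were examined here as a set of 10 genes among the 58870 genes of the deposited count table. They were found by gene name and are NDST1, HS2ST1, HS6ST1, HS6ST2, HS3ST1, HS3ST2, HS3ST3A1, HS3ST3B1, SULF1 and SULF2. All 10 names were present once. The genes were selected on the differences between MAFG and GFP libraries, which were already known when the list was drawn up. Changes with MAFG are therefore given as a description of these genes, each beside the share of all genes that passed the same limits, and are no independent support. RNA-seq was carried out on 3 human melanoma cell lines, WM164, SKMEL28 and A375. Each line overexpressed either MAFG, a small Maf transcription factor, or GFP as its control, in 3 libraries per condition and 18 libraries in all. Cells were grown in RPMI medium with serum, lines had been transduced with lentiviral vectors according to the methods, and no time or dose is given in the labels. Each line is a single line, and nothing in the labels says whether the 3 libraries of a condition came from separate cultures, so that p-values measure only the spread between these libraries.

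Heparan sulfate is a sugar chain attached to core proteins at the cell surface and in the matrix. It is modified in order while it is made in the Golgi. NDST enzymes replace acetyl groups on glucosamine with sulfate, an epimerase converts neighbouring uronic acids, HS2ST1 adds sulfate at the 2-O position, HS6ST enzymes add it at the 6-O position and HS3ST enzymes add the rare 3-O sulfate. SULF1 and SULF2 work later and outside the cell, where they remove 6-O sulfate from finished chains. The pattern of sulfates sets which growth factors, chemokines and proteases a chain binds.

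The depth of the libraries, as total counts, lay between 20122172 and 39025042. MAFG itself was at 25.8 ± 2.91 CPM (normalised counts scaled by library size) with GFP and 53.1 ± 4.59 with MAFG in WM164 (SD, n = 3), which is 1.04 on the log2 scale (standard error, SE, 0.09, adjusted p = 6.37e-08). The same difference was 0.64 in SKMEL28 cells (adjusted p = 0.000128). It was 0.80 in A375 cells, where it did not pass (adjusted p = 0.0655). The 3 A375 libraries with MAFG did lie above the 3 with GFP for this gene, at 1627 to 2227 against 905 to 1173 counts. The deposited TPM values put MAFG further apart, at 2.89 ± 0.543 with GFP and 24.5 ± 3.34 with MAFG in WM164, 3.96 ± 0.641 and 16.97 ± 2.66 in SKMEL28, and 4.22 ± 0.291 and 25.2 ± 2.88 in A375 (SD, n = 3). In A375 the difference passed on log2(TPM + 1) (limma, adjusted p = 0.000643) and with DESeq2 (adjusted p = 0.000768). Why counts and TPM differ for MAFG was not tested. All 7 melanocyte and melanoma markers (SOX10, S100B, MITF, PMEL, MLANA, TYR, DCT) were above 1 CPM in every WM164 and SKMEL28 library, but only 2 of 7, SOX10 and MITF, in A375, where MLANA and TYR were at 0 in all 6 libraries. Levels of these markers differed between conditions, not all in the same direction. The summed level of the 7 markers was 4693 to 5027 CPM with GFP and 2637 to 2766 with MAFG in WM164, 4787 to 5044 and 4159 to 4386 in SKMEL28, and 35.3 to 41.6 and 119.9 to 172 in A375. AXL and NGFR, markers of dedifferentiated melanoma, summed to 8.61 to 11.0 and 45.4 to 51.7 CPM in WM164, 10.3 to 14.4 and 85.5 to 100.4 in SKMEL28, and 617 to 665 and 546 to 683 in A375. The AXL and NGFR sums thus overlapped in A375. The higher sum of the 7 markers in A375 lay mostly in SOX10, at 8.85 ± 2.35 CPM with GFP and 114.1 ± 24.5 with MAFG, while MITF overlapped, at 28.6 ± 1.35 and 27.4 ± 6.17 (SD, n = 3). In SKMEL28, S100B ran against the sum, at 270.6 ± 21.4 and 404.4 ± 9.59 CPM (SD, n = 3). The part of these differences in the results below was not tested. Markers of keratinocytes, endothelial cells and leukocytes summed to at most 1.05 CPM in any library, with KRT1 and CD3E at 0 throughout. Those of fibroblasts (LUM, PDGFRA, COL1A2, DCN) summed to 0.217 to 25.0 CPM, mostly LUM and PDGFRA.

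**Figure D1:**
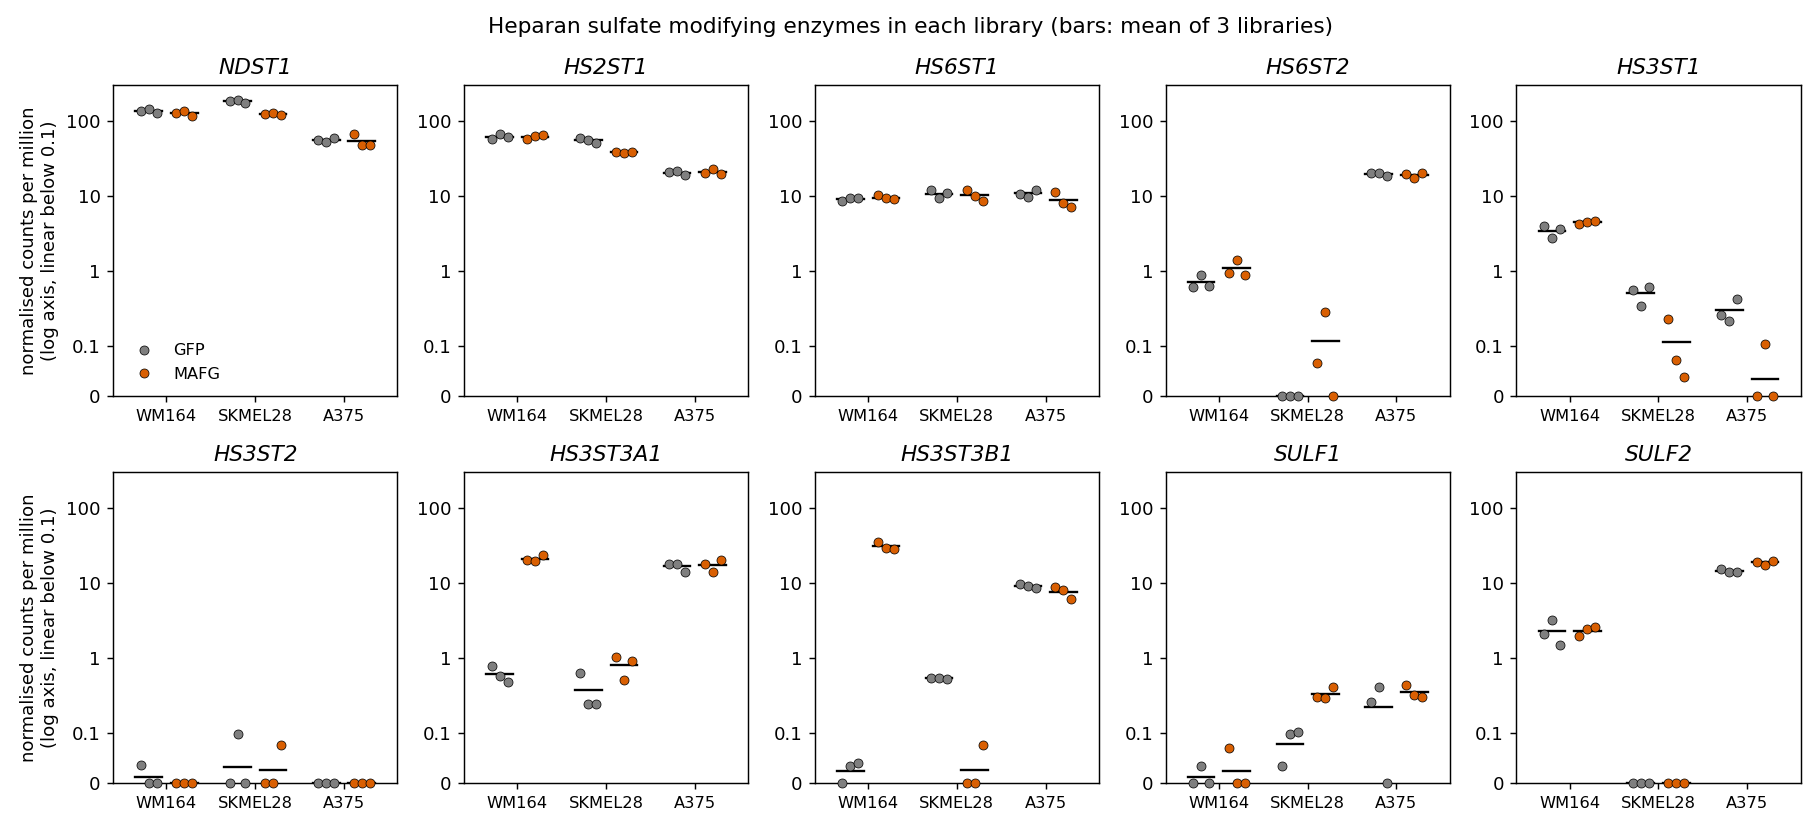
Normalised CPM (log axis, linear below 0.1) of each enzyme gene in the 3 lines, with 1 point per library, GFP in grey and MAFG in orange, and a bar at the mean of 3 libraries. HS3ST3A1 and HS3ST3B1 rise from means of 0.608 and 0.0242 CPM with GFP to 20.9 and 30.4 CPM in WM164 with MAFG, while the A375 points of both conditions lie together.

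Both HS3ST3 genes changed most in WM164. HS3ST3A1 and HS3ST3B1 encode Golgi 3-O-sulfotransferases of almost the same activity, which make the 3-O-sulfated sites that herpes simplex virus glycoprotein D is known to bind. HS3ST3B1 had 0, 1 and 1 counts in the 3 GFP libraries of WM164 and 985, 786 and 898 in the 3 MAFG libraries. It went from nearly absent to 30.4 ± 3.56 CPM (SD, n = 3), with no overlap between conditions. With only 2 counts in all GFP libraries the fitted log2 fold change of 10.07 is uncertain, and the ratio of summed counts was 1266-fold with an exact 95% counting interval of 350.1 to 10460 (adjusted p = 6.77e-15). HS3ST3A1 had 22, 17 and 12 counts with GFP and 569, 526 and 754 with MAFG. It rose from 0.608 ± 0.160 to 20.9 ± 2.10 CPM (SD, n = 3), 34.0-fold, or 5.09 on the log2 scale (SE 0.17, adjusted p = 2.31e-13).

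Both genes lie on chromosome 17 of GRCh38. HS3ST3A1 (ENSG00000153976.3) spans chr17:13494032-13601929 on the minus strand and HS3ST3B1 (ENSG00000125430.9) spans chr17:14301081-14349404 on the plus strand, 699151 bases apart with their starts facing each other. Their transcripts share 438 identical 100-base windows, 8.16% of those of HS3ST3B1 and 10.5% of those of HS3ST3A1, while no other pair of the 10 genes shares any. Since only unique reads were counted, a read pair that lies wholly in such a stretch would be left out of both genes. The 250 bases before each start are shown because these promoters belong to the 2 genes that changed most (RefSeq, GRCh38.p14, 5′ to 3′ on the gene's strand). The 2 windows cover chr17:14300831-14301080, plus strand, for HS3ST3B1 and chr17:13601930-13602179, minus strand, for HS3ST3A1. Capitals mark TGCTGA in HS3ST3B1 and CACGTG in HS3ST3A1.
HS3ST3B1: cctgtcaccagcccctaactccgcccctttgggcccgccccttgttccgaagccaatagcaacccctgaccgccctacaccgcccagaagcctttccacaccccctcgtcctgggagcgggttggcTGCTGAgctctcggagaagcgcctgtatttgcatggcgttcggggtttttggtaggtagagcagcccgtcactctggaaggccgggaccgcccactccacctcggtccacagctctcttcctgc
HS3ST3A1: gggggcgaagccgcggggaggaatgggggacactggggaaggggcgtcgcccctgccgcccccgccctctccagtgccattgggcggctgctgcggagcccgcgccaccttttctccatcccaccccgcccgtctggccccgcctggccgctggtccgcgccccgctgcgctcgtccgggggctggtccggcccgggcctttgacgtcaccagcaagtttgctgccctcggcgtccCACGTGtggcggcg
These windows were searched on both strands for TGCTGA, a core of Maf recognition elements, and TGACNNNGC, the antioxidant response element core. The search also covered CACGTG, the E-box, and TCACGTG, which is the E-box with a T before it. HS3ST3B1 held TGCTGA from base -124 to -119 before its start, and HS3ST3A1 held CACGTG from -14 to -9. Of 34935 RefSeq windows of 250 bases, 14% held TGCTGA, 10.9% held TGACNNNGC, 6.32% held CACGTG and 3.29% held TCACGTG. Of the 9 genes that had a window, SULF2, which has 4 windows, was the only other one with a match, CACGTG in 1 window and TGCTGA in another. A match describes letters in a window and not a bound site.

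The other enzymes differed little between MAFG and GFP in WM164. In all, 8 of the 10 genes had enough counts to be tested in this line, and 2 were called, at an adjusted p of at most 0.05 and a change above 2-fold, limits that 6.94% of all tested genes passed. The same 2 passed the adjusted p alone, which 31.8% of all tested genes did. HS3ST1, the 3-O-sulfotransferase that makes the antithrombin-binding site of heparin, had 110, 83 and 93 counts with GFP and 122 to 152 with MAFG. The conditions did not overlap for HS3ST1, but its log2 fold change of 0.39 (SE 0.19) did not pass (adjusted p = 0.145). NDST1, an N-deacetylase and N-sulfotransferase, had 3166 to 4273 counts with GFP and 3668 to 3801 with MAFG. HS2ST1, the only 2-O-sulfotransferase for heparan sulfate, had 1531 to 2001 and 1618 to 2083. The log2 fold changes of NDST1, HS2ST1, HS6ST1 and SULF2 lay between -0.08 and 0.06, and that of HS6ST2 was 0.59 on 16 to 38 counts per library (adjusted p = 0.314). The conditions narrowly missed an overlap for HS6ST2, at 0.607 to 0.895 CPM with GFP and 0.896 to 1.40 with MAFG. SULF1 and HS3ST2 had at most 2 counts in any WM164 library and were not tested.

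**Figure D2:**
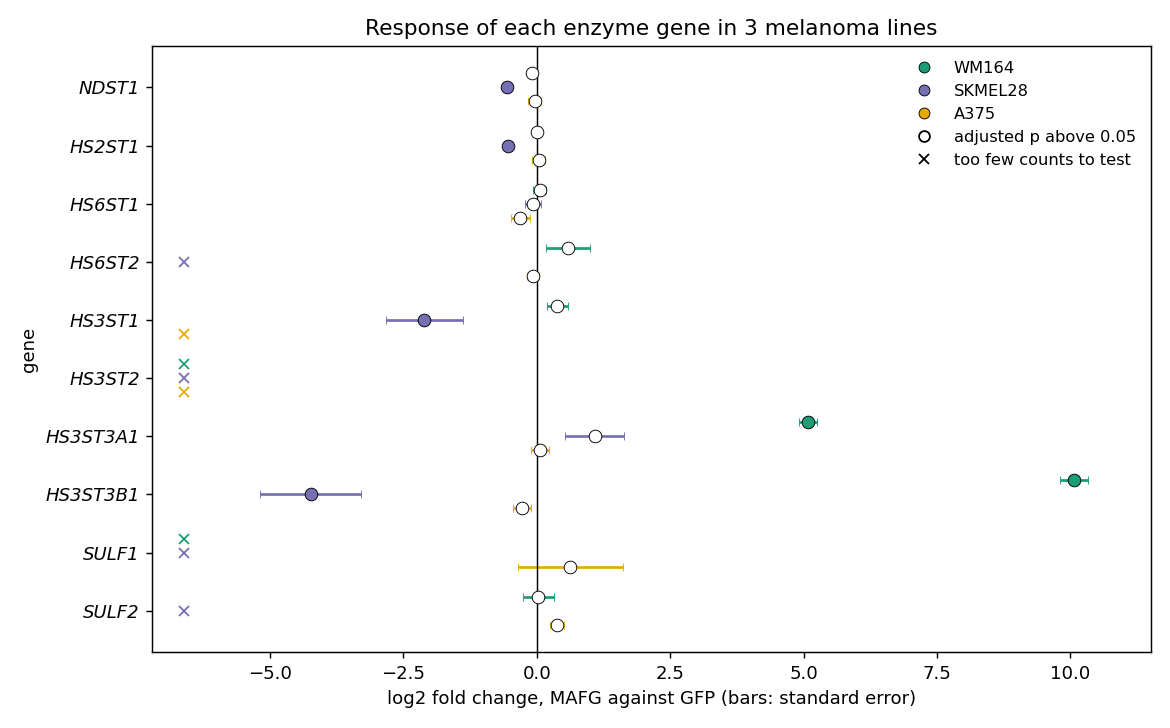
Log2 fold change of MAFG against GFP for each enzyme gene (horizontal axis, bars are the standard error) in WM164, SKMEL28 and A375, with filled points for an adjusted p of at most 0.05 and crosses for genes with too few counts to be tested. HS3ST3B1 lies at 10.07 in WM164 and -4.23 in SKMEL28, and every A375 point is open.

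In SKMEL28, HS3ST3B1 moved the opposite way, and NDST1 and HS2ST1 fell by less than 2-fold. HS3ST3B1 had 16, 11 and 15 counts with GFP and 0, 0 and 2 with MAFG. It was already low in the control, at 0.530 ± 0.0120 CPM (SD, n = 3), and the conditions did not overlap. By summed counts it was 22.4-fold lower with MAFG, with an exact 95% counting interval of 5.82 to 190.8 (fitted log2 fold change -4.23, SE 0.95, adjusted p = 0.00288). On unfiltered log2(TPM + 1) the change of HS3ST3B1 was -0.10 and did not pass (limma, adjusted p = 0.0635). HS3ST3A1 had 19, 5 and 7 counts with GFP and 31, 14 and 24 with MAFG, overlapping ranges, and its log2 fold change of 1.09 (SE 0.56) did not pass (adjusted p = 0.164). HS3ST1 had 17, 7 and 18 counts with GFP and 7, 2 and 1 with MAFG. Its log2 fold change of -2.10 (SE 0.73) passed at an adjusted p of 0.0385, but not with DESeq2 (adjusted p = 0.0560) or without any 1 of 5 of the 6 libraries (adjusted p of 0.0541 to 0.145). Its deposited TPM values (transcripts scaled per library) were 0.06, 0.04 and 0.54 with GFP and 0.48, 0.01 and 0 with MAFG, which overlap.

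NDST1 and HS2ST1, which carry out early steps on the chain, both fell in SKMEL28 with MAFG. NDST1 had 5517, 3805 and 4993 counts with GFP and 3666, 3540 and 3170 with MAFG. After scaling for depth, all 3 MAFG libraries lay below all 3 GFP libraries, at 122.7 ± 4.01 against 181 ± 7.80 CPM (SD, n = 3), 1.47-fold lower (log2 fold change -0.56, SE 0.06, adjusted p = 2.35e-06). HS2ST1 had 1798, 1123 and 1452 counts with GFP and 1168, 1025 and 1018 with MAFG. Its levels were 55.1 ± 4.89 and 38.0 ± 1.12 CPM (SD, n = 3), again without overlap and 1.45-fold lower (log2 fold change -0.54, SE 0.07, adjusted p = 5.52e-05). HS6ST1, which adds 6-O sulfate, had 189 to 360 counts with GFP and 226 to 359 with MAFG, and its log2 fold change of -0.08 (SE 0.15) did not pass (adjusted p = 0.748). Of the 10 genes, 6 were tested and 2 called, HS3ST3B1 and HS3ST1, where 4.74% of all tested genes were called. Those 2 with NDST1 and HS2ST1 make 4 that passed the adjusted p alone, as did 29.9% of all tested genes.

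The genes left untested in SKMEL28 had few or no counts. HS6ST2, a second 6-O-sulfotransferase, had 0 counts in all 3 GFP libraries and 2, 8 and 0 with MAFG. The conditions overlap at 0, and 8 of its 10 counts came from 1 library. SULF1 had 1, 2 and 3 counts with GFP and 9, 8 and 11 with MAFG, which do not overlap but were too few for the test. SULF2 had 0 counts in all 6 SKMEL28 libraries, and HS3ST2 had 0 to 2.

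In A375, none of the 8 tested enzymes passed, either at an adjusted p of 0.05, which 0.843% of all tested genes did, or with the limit of 2-fold as well, which 0.665% did. At an unadjusted edgeR p under 0.05 there was 1 gene, SULF2, and DESeq2 called 0. HS3ST3B1 had 372, 337 and 300 counts with GFP and 347, 297 and 263 with MAFG, which is -0.27 on the log2 scale (SE 0.17). HS3ST3A1 had 685, 660 and 491 counts and 695, 531 and 859, which is 0.06 on the log2 scale (SE 0.17). Both genes were thus well expressed in A375 in either condition, with overlapping libraries. SULF2, the extracellular sulfatase, had 591, 505 and 496 counts with GFP and 752, 657 and 846 with MAFG. Its libraries did not overlap, at 14.3 ± 0.940 and 18.7 ± 1.17 CPM (SD, n = 3), but its log2 fold change of 0.38 did not pass (adjusted p = 0.431). SULF2 shares exon sequence with NCOA3 on the opposite strand, and NCOA3 had 848 to 2623 counts per library. SULF2 had 0 counts in all 6 SKMEL28 libraries. Whether reads from the shared sequence affected the counts of SULF2 in any line was not tested. HS3ST1 had 10, 8 and 15 counts with GFP and 0, 4 and 0 with MAFG, too few for the test within A375. In a model of all 18 libraries it was tested, with a log2 fold change of -3.01 (adjusted p = 0.0341). The log2 fold changes of NDST1, HS2ST1, HS6ST1, HS6ST2 and SULF1 ranged from -0.31 to 0.63, and the largest, that of SULF1, rested on 0 to 17 counts per library.

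The response of the HS3ST3 genes differed between lines when the difference itself was tested in 1 model of all 18 libraries. For HS3ST3B1, the log2 fold change in WM164 exceeded that in SKMEL28 by 14.36 (SE 0.70, adjusted p = 1.53e-11) and that in A375 by 10.35 (SE 0.43, adjusted p = 1.32e-12), sizes that rest on groups with 2 counts. In SKMEL28 it was lower than in A375 by a difference of -4.01 (SE 0.65, adjusted p = 0.000343). On the log2(TPM + 1) scale, where values this low are shrunk, that last difference was 0.12 and did not pass. For HS3ST3A1, WM164 exceeded SKMEL28 by 4.03 (SE 0.51, adjusted p = 1.20e-05) and A375 by 5.03 (SE 0.33, adjusted p = 1.39e-09). SKMEL28 and A375 differed by 1.002 (SE 0.42), which did not pass (adjusted p = 0.151). For HS3ST1, WM164 exceeded SKMEL28 by 2.49 (SE 0.79, adjusted p = 0.0393) and A375 by 3.39 (SE 0.89, adjusted p = 0.0176). The first of these was lost without any 1 of 10 of the 18 libraries (adjusted p of 0.0647 to 0.111). Both were lost on unfiltered log2(TPM + 1), where they were 0.07 and 0.05 (limma, adjusted p = 0.940 and 0.987), and they rest on 10 and 4 summed counts of HS3ST1 with MAFG in SKMEL28 and A375.

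In the count model, the responses of NDST1 and HS2ST1 in SKMEL28 differed from those in the other two lines. The log2 fold change of HS2ST1 was higher in WM164 than in SKMEL28 by 0.54 (SE 0.13, adjusted p = 0.00641) and lower in SKMEL28 than in A375 by a difference of -0.58 (SE 0.13, adjusted p = 0.00601). For NDST1 the differences were 0.48 (SE 0.14, adjusted p = 0.0257) and -0.53 (SE 0.14, adjusted p = 0.0203), and without single libraries the adjusted p rose to as much as 0.0819 and 0.0624. With limma on the TPM scales the differences between SKMEL28 and A375 kept their sign but were lost in all 3 settings, for HS2ST1 (adjusted p of 0.2863 to 0.4005) and for NDST1 (0.0992 to 0.139). That of HS2ST1 between WM164 and SKMEL28 was lost in 2 of them (0.05685 and 0.0589). WM164 and A375 differed by -0.04 and -0.05 for HS2ST1 and NDST1, with SEs of 0.13 and 0.14. In these comparisons 9 of the 10 genes entered the test. SULF2 was among them but had no count in SKMEL28, so its response in that line could not be estimated. Between WM164 and SKMEL28, 3 of the 9 genes were called by the same limits, against 5.10% of all genes. Between WM164 and A375 there were 3 as well, against 4.39%. Between SKMEL28 and A375 there were 2, against 4.20%, and 1 of these, HS6ST2, rests on the 3 SKMEL28 libraries without a count, so that its fitted size is not given. The 3 comparisons share libraries and are not independent of each other.

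In the GFP libraries, the controls without added MAFG, the lines also differed in these enzymes. HS3ST3B1 was at 0.0242 ± 0.0212 CPM in WM164, 0.530 ± 0.0120 in SKMEL28 and 9.07 ± 0.667 in A375 (SD, n = 3 each). By summed counts WM164 was 22.1-fold below SKMEL28 (exact 95% counting interval 5.75 to 188.5) and 379-fold below A375 (104.7 to 3137). On log2(TPM + 1), filtered or not, the difference between WM164 and SKMEL28 was -0.10 and did not pass (limma, adjusted p = 0.509 and 0.657). SKMEL28 lay below A375 by a log2 difference of -4.09 (SE 0.24, adjusted p = 3.19e-12). HS3ST3A1 was at 0.608 ± 0.160, 0.373 ± 0.225 and 16.5 ± 2.42 CPM, and WM164 and SKMEL28 lay below A375 by log2 differences of -4.75 and -5.40 (adjusted p = 1.05e-12 and 4.80e-13).

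Of the 6-O enzymes and the sulfatases, HS6ST2 and SULF2 also set A375 apart. HS6ST2 had 663 to 772 counts in the GFP libraries of A375, 16 to 27 in WM164 and 0 in SKMEL28. It was at least 521-fold lower in SKMEL28 than in A375 against the floor of 3 counts, and lower in WM164 by a log2 difference of -4.77 (SE 0.28, adjusted p = 1.88e-11). SULF2 had 496 to 591 counts in A375, 37 to 96 in WM164 and 0 in SKMEL28, at least 379-fold lower in SKMEL28 than in A375 and at least 60.5-fold lower than in WM164. WM164 was below A375 by -2.66 on the log2 scale (SE 0.22, adjusted p = 9.40e-09). NDST1 and HS2ST1 ran the other way and were lowest in A375, at 55.2 ± 3.78 and 20.3 ± 1.29 CPM (SD, n = 3). They were higher in WM164 than in A375 by 1.29 and 1.59 on the log2 scale, and higher in SKMEL28 than in A375 by 1.71 and 1.44, each at an adjusted p of at most 3.63e-10. HS3ST1 was highest in WM164, at 3.45 ± 0.617 CPM, above SKMEL28 by 2.73 and A375 by 3.52 on the log2 scale (adjusted p = 0.000102 and 4.54e-06). HS6ST1 was close to level, at 9.10 ± 0.443, 10.7 ± 1.35 and 10.8 ± 1.14 CPM (SD, n = 3), and passed in no pair of lines. SULF1 was low in every line, at most 15 counts in a GFP library. HS3ST2, the neuronal 3-O-sulfotransferase, had at most 2 counts in any of the 18 libraries.

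Of the 9 genes tested, 4 were called between the GFP libraries of WM164 and SKMEL28, where 28.7% of all genes were called. Between WM164 and A375 the number was 8, where 46.7% of all genes were called, and between SKMEL28 and A375 it was 6, where 43.8% were. The call of SULF1 between WM164 and A375 rests on 0, 1 and 0 counts against 10, 15 and 0, and was lost without any 1 of 3 libraries (adjusted p of 0.0612 to 0.0742).

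**Figure D3:**
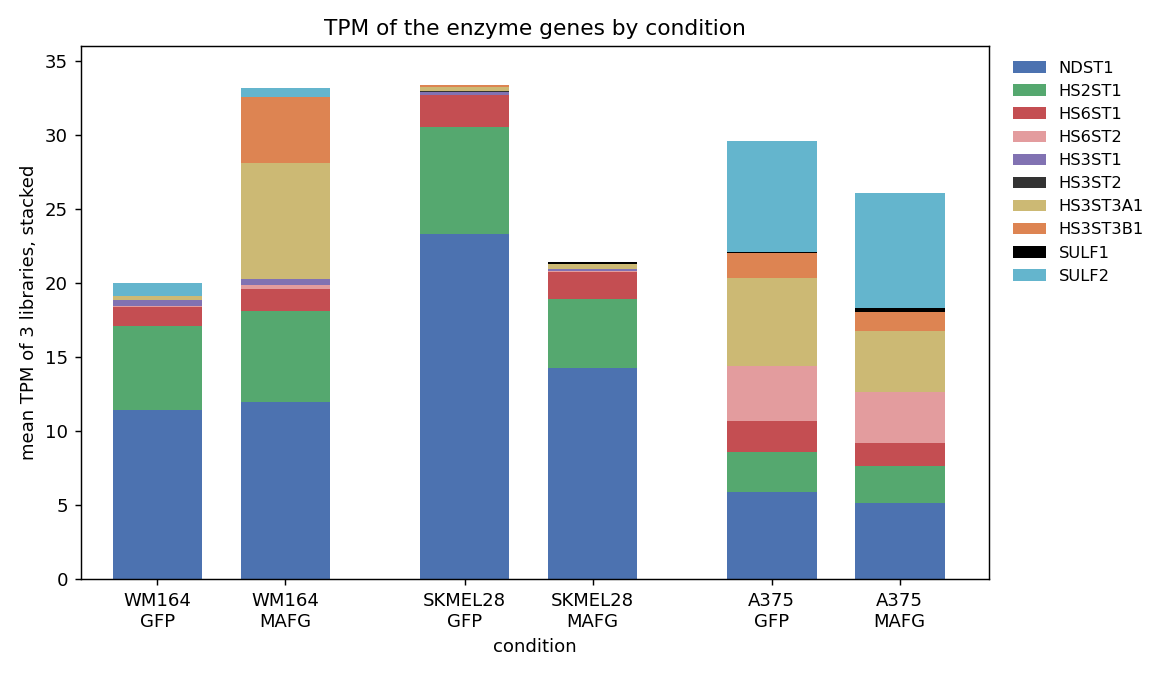
Mean TPM of the 10 enzyme genes, stacked by gene, in the 6 conditions (bars start at 0, mean of 3 libraries). HS3ST3A1 and HS3ST3B1 fill much of the WM164 bar with MAFG, NDST1 makes up most of both SKMEL28 bars, and SULF2, HS6ST2 and HS3ST3A1 are prominent only in the A375 bars among the GFP conditions.

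Levels of different genes can be compared on the deposited TPM scale, which takes gene length into account. Between conditions this scale moved as a whole. Over all genes tested on it, the median change of log2(TPM + 1) with MAFG came to 0.137 for WM164. It lay below 0 for A375 and SKMEL28, at -0.103 and -0.143. By counts the median change stayed between -0.01 and 0 for every line. The share of this shift in the TPM differences between conditions given below was not tested. In WM164 with GFP the order was NDST1 at 11.4 ± 1.39, HS2ST1 at 5.69 ± 1.03, HS6ST1 at 1.26 ± 0.231, SULF2 at 0.887 ± 0.499, HS3ST1 at 0.390 ± 0.104, HS3ST3A1 at 0.247 ± 0.0569 and HS6ST2 at 0.1 ± 0.0265 TPM (SD, n = 3). NDST1 and HS2ST1 stood clear of the rest, while the libraries of HS6ST1 and SULF2, of SULF2 and HS3ST1, and of HS3ST1 and HS3ST3A1 overlapped. With MAFG, HS3ST3A1 at 7.83 ± 1.78 and HS3ST3B1 at 4.46 ± 0.775 TPM stood beside HS2ST1 at 6.21 ± 0.382 TPM, whose libraries HS3ST3A1 overlapped and HS3ST3B1 lay below. The 4 HS3ST genes together went from 0.643 ± 0.144 to 12.7 ± 1.07 TPM, and all 10 genes from 20.01 ± 3.002 to 33.2 ± 1.81 TPM (SD, n = 3), without overlap of libraries in either sum.

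SKMEL28 showed a steeper order on this scale. With GFP, NDST1 stood at 23.3 ± 1.15, HS2ST1 at 7.25 ± 0.964 and HS6ST1 at 2.16 ± 0.212 TPM, and none of these overlapped. HS3ST3A1 at 0.330 ± 0.161 and HS3ST1 at 0.213 ± 0.283 TPM followed and overlapped. With MAFG, NDST1 was at 14.3 ± 1.08 and HS2ST1 at 4.62 ± 0.197 TPM, and the 10 genes together went from 33.4 ± 1.77 to 21.4 ± 1.72 TPM (SD, n = 3). In A375 with GFP, SULF2 at 7.47 ± 0.462, HS3ST3A1 at 5.95 ± 2.94 and NDST1 at 5.88 ± 0.368 TPM led, and HS3ST3A1 overlapped both of the others as well as HS6ST2 and HS2ST1. HS6ST2 at 3.71 ± 0.520, HS2ST1 at 2.703 ± 0.214, HS6ST1 at 2.06 ± 0.205 and HS3ST3B1 at 1.67 ± 0.289 TPM followed, and among these each lay below the one before without overlap. The spread of HS3ST3A1 in these A375 libraries, 2.83 to 8.66 TPM, was wider than that of its normalised counts, 13.7 to 17.9 CPM. With MAFG in A375 all 10 genes together stood at 26.1 ± 1.79 TPM against 29.6 ± 3.33 with GFP (SD, n = 3), and the libraries overlapped.

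Across the 18 libraries some of the enzymes varied together. The log2 CPM of HS6ST2 and SULF2 had a Pearson r of 0.953, that of NDST1 and HS2ST1 0.909, and that of HS3ST3A1 and HS3ST3B1 0.896. NDST1 and HS6ST2 ran opposite, at -0.914. These values describe 18 libraries that share 6 conditions and 3 lines, and so differences between lines and between conditions. That of the HS3ST3 pair includes their rise in WM164 with MAFG. The genes were selected on such differences, so this value is no independent support. Among the 18766 other genes tested, the 3 most like HS3ST3B1 were AC005224.4 (r = 0.972), FLRT2 (r = 0.956), a membrane guidance protein, and MAN1A1 (r = 0.955), a Golgi mannosidase of N-glycan processing. AC005224.4 is a lncRNA that lies inside HS3ST3B1 on the same strand, so it may not be a separate gene in these counts. MAN1A1 had 2, 1 and 0 counts in WM164 with GFP and 337, 317 and 454 with MAFG, 0 to 5 counts in SKMEL28 and 67 to 146 in A375.

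**Figure D4:**
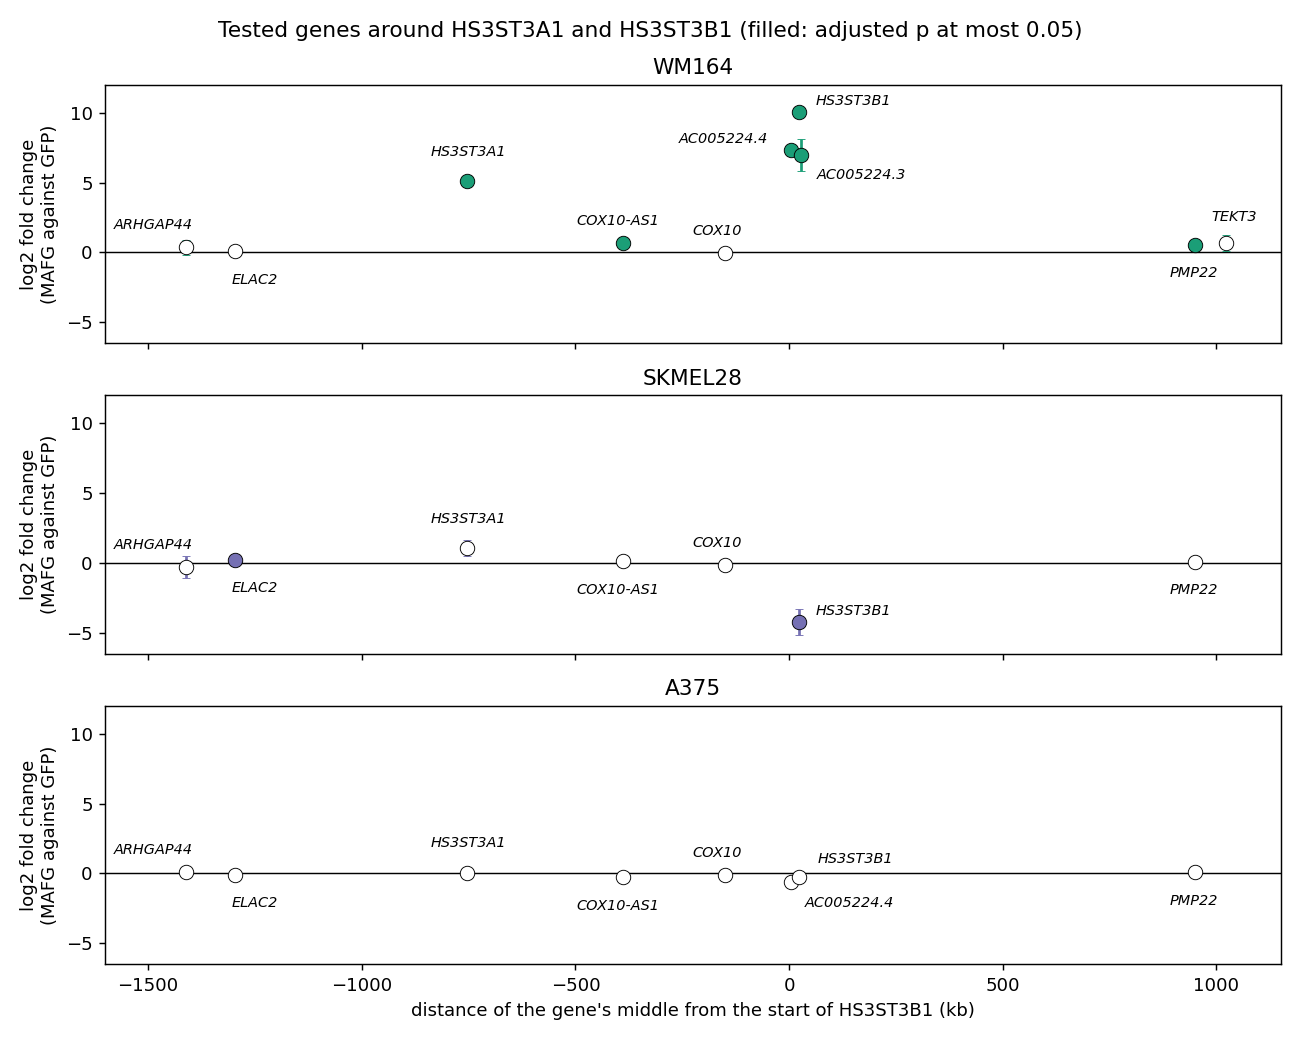
Log2 fold change of MAFG against GFP (vertical axis, bars are the standard error) of the tested genes within 1000000 bases of HS3ST3A1 or HS3ST3B1, against the distance in kb of each gene's middle from the start of HS3ST3B1, in 1 panel per line. Filled points had an adjusted p of at most 0.05. In WM164 both HS3ST3 genes and 2 lncRNAs inside HS3ST3B1 stand well above 0 (AC005224.3 had no count with GFP, so its height depends on the fit), and COX10 between them lies at -0.03.

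The genes between and around the HS3ST3 pair were examined after the values of the pair had been seen. In WM164, 10 genes of this stretch of chromosome 17 were tested and 6 passed the adjusted p, the HS3ST3 pair included, where 31.8% of all tested genes passed. The other 4 of 8 were a pair of lncRNAs inside HS3ST3B1, COX10-AS1 and PMP22. AC005224.4 (ENSG00000266709.1), a lncRNA that lies inside HS3ST3B1 on the same strand and shares no exon with it, had 1, 0 and 3 counts with GFP and 199, 239 and 307 with MAFG. It rose with HS3ST3B1, by 7.33 on the log2 scale (SE 0.39, adjusted p = 9.57e-11). AC005224.3, also inside HS3ST3B1, had 0 counts with GFP and 15, 12 and 21 with MAFG. Whether reads counted for either lncRNA came from HS3ST3B1 RNA was not tested. COX10, a haem A synthesis gene that lies between the pair, had 383 to 505 counts with GFP and 420 to 460 with MAFG, or -0.03 on the log2 scale (adjusted p = 0.884). COX10-AS1 rose by 0.66 and PMP22, a myelin protein gene, by 0.54 on the log2 scale (adjusted p = 0.0139 and 2.06e-07), both under 2-fold. In SKMEL28, ELAC2, a tRNA-processing gene, was the only other one of 7 tested genes to pass, at 0.22 on the log2 scale (adjusted p = 0.0118), and AC005224.4 had 0 to 4 counts. In A375 none of the 8 tested genes passed, and AC005224.4 had 138 to 246 counts with GFP and 103 to 165 with MAFG.

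The rest of the heparan sulfate pathway was looked at through 6 further lists. Over all tested genes, 6.94% were called in WM164, 4.74% in SKMEL28 and 0.665% in A375. Whether a list's share differs from these was not tested. Of the 8 other modifying enzymes (NDST2, NDST3, NDST4, GLCE, HS3ST4, HS3ST5, HS3ST6, HS6ST3), 3 were tested in WM164 and 1 was called. This was HS3ST5, another 3-O-sulfotransferase, at 27 summed counts with GFP and 71 with MAFG, or 1.31 on the log2 scale (adjusted p = 0.0492) that was lost with DESeq2 (adjusted p = 0.0630) and without any single WM164 library. None of this list was called in SKMEL28 or A375. The median log2 fold change over all tested genes was between -0.01 and 0 in each line, and those of the list were 0.06, 0.18 and 0.44 for WM164, SKMEL28 and A375, over 3, 2 and 4 tested genes.

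Among the 12 genes for the linkage and chain polymerisation, all were tested, and 1 was called in WM164, none in SKMEL28 and 1 in A375, with medians of 0.02, -0.10 and 0.09. The gene was XYLT1 in both, the xylosyltransferase that starts the chain. It rose from 12.6 ± 0.336 to 33.9 ± 3.06 CPM in WM164 (log2 fold change 1.42, adjusted p = 9.69e-10) and from 0.354 ± 0.380 to 4.19 ± 0.482 CPM in A375 (log2 fold change 3.56, adjusted p = 0.0229). The second of these was lost without any 1 of 4 A375 libraries (adjusted p of 0.0522 to 0.138). Among the 8 genes for sulfate uptake and donor, 1 was called in each line, with medians of -0.22, 0.30 and 0.10. SLC26A2, a sulfate transporter, rose by 1.12 on the log2 scale in WM164 (adjusted p = 1.04e-10) and by 1.015 in A375 (adjusted p = 0.00142). The second of these was lost on every TPM scale (limma, adjusted p of 0.686 to 0.803). In SKMEL28 the called gene was PAPSS2, which makes the sulfate donor of all sulfotransferases. It rose from 5.47 ± 0.435 to 23.6 ± 2.57 CPM (SD, n = 3, adjusted p = 4.13e-09).

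Core proteins carry the chains. Of 13 such genes, 11 were tested in each line and 2 were called in WM164, 4 in SKMEL28 and 1 in A375, with medians of 0.32, -0.21 and 0.13. SDC2, a syndecan, rose from 11.9 ± 0.993 to 86.9 ± 3.08 CPM in WM164 (SD, n = 3), 7.27-fold (adjusted p = 1.19e-14). GPC4, a glypican, rose in WM164 and in SKMEL28 by 1.36 and 1.69 on the log2 scale (adjusted p = 4.05e-10 and 1.16e-06). In SKMEL28, GPC6, another glypican, fell from 57.8 ± 0.384 to 6.61 ± 0.603 CPM (adjusted p = 1.34e-12), SDC1 from 7.46 ± 0.864 to 1.60 ± 0.281 CPM (adjusted p = 8.93e-07) and COL18A1, a collagen with heparan sulfate, from 2.96 ± 0.507 to 1.40 ± 0.417 CPM (adjusted p = 0.0117, but 0.0747 without GFP replicate 1). In A375, SDC3 rose from 1.81 ± 0.0557 to 10.4 ± 2.69 CPM (SD, n = 3, adjusted p = 0.000238), far below its 702 ± 42.2 CPM in WM164 with GFP. This rise did not pass on any TPM scale (limma, adjusted p of 0.139 to 0.223). Of 10 genes for breakdown of heparan sulfate, ARSG, a lysosomal sulfatase, was the only one called, lower in SKMEL28 by a log2 fold change of -1.22 (adjusted p = 2.80e-07), with medians of -0.02, -0.33 and 0.02. Of 16 genes for the related chondroitin and dermatan sulfate, DSEL, an epimerase homologue, was the only one called, at -2.28 in SKMEL28 (adjusted p = 2.02e-05), with medians of 0.12, 0.02 and -0.03.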

How the data were processed

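Per the labels, total RNA was isolated from WM164, SKMEL28 and A375 cells that overexpressed MAFG or GFP. The labels name a NEBNext Ultra kit without strand information, while the study's methods name a strand-specific NuGEN kit, and the use of strand in counting is not given in the sources used here. The authors trimmed reads with cutadapt 1.8.1, aligned them to GRCh38 with STAR 2.7.7a, counted unique reads per gene with featureCounts and deposited the raw counts of 58870 genes without normalization. The authors also deposited TPM values, which have the same sum in every library, and the submitters' processing notes list RSEM 1.3.0. The release of the annotation is not given. Of the identifiers, 58517 matched GENCODE 44, the source of positions and overlaps. Of the sample columns, 0 were left unused.

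Counts were compared in R 4.3.3 with edgeR 4.0.16 (TMM normalization, filterByExpr, quasi-likelihood F test, Benjamini-Hochberg adjustment over all tested genes), per line for MAFG against GFP and in 1 model of all 18 libraries for differences between lines. Every adjusted p is from edgeR unless another tool is named. Called genes had an adjusted p of at most 0.05 and a change above 2-fold. Standard errors are the absolute log2 fold change divided by the square root of F. CPM were TMM-normalised over all 18 libraries. Where a condition had 1 to 3 counts in all, the ratio of counts is given with an exact 95% interval, and at 0 counts a bound against 3 counts. Such intervals cover counting error only. The tests were tested on simulated data. Alternatives were DESeq2 1.42.0, edgeR with those size factors, edgeR unfiltered or with a minimum of 10 counts in every library, limma 3.58.1 on log2(TPM + 1) or log2(TPM + 0.1) (genes at a TPM of 1 or more in 3 libraries, or unfiltered), all 18 libraries in 1 model, the replicate number as a block, and each library left out. The count ratios and the genes around HS3ST3B1 were added after results were seen. Replicates of a condition correlated at 0.970 to 0.985 and differed by more than sampling noise (mean chi-square per gene 5.90 to 96.7 over 18 pairs).

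The members and the pathway lists were chosen with earlier results of these data known. Named were the 10 genes, MAFG and up to 4 called genes per list and line with the largest change. The 3 genes most correlated with the member that changed most were named as well. Figures were drawn with matplotlib 3.10.9.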

Additional observations from a re-analysis of the deposited data

Results flagged for a closer look

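The response to MAFG differed between lines, by a test of the difference in edgeR's model of all 18 libraries, for 3 of the 3-O-sulfotransferase genes. Of all genes, 5.10% were called for WM164 to SKMEL28, 4.39% for WM164 to A375 and 4.20% for SKMEL28 to A375. For HS3ST3B1, the differences of log2 fold changes were 14.36 between WM164 and SKMEL28, 10.35 between WM164 and A375, and -4.01 between SKMEL28 and A375. These sizes rest on groups with 2 counts. The last did not pass on log2(TPM + 1), at 0.12 (limma, adjusted p = 0.805), or on log2(TPM + 0.1), at -0.41 (limma, adjusted p = 0.619). All 3 MAFG libraries lay above all 3 GFP libraries in WM164 and below them in SKMEL28. For HS3ST3A1, they were 4.03 between WM164 and SKMEL28 and 5.03 between WM164 and A375. For HS3ST1, they were 2.49 between WM164 and SKMEL28 (adjusted p = 0.0393) and 3.39 between WM164 and A375 (adjusted p = 0.0176). These rest on 10 and 4 summed counts of HS3ST1 with MAFG in SKMEL28 and A375. The first was lost without any 1 of 10 of the 18 libraries, and both were lost on unfiltered log2(TPM + 1) (limma, adjusted p = 0.940 and 0.987).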

How the results depend on the processing

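Of 1219 alternative values of 67 log2 changes named in the text, 1103 kept their direction and side of 0.05, 76 lost the adjusted p of 0.05, 8 gained it (MAFG in A375) and 32 changed sign, and causes were not tested except as stated. Requiring 10 counts in every library, which drops genes nearly absent in 1 condition, left 1 enzyme called in WM164 and 0 in SKMEL28 (1 and 2 at the adjusted p alone), 0 in each comparison of responses, and 0, 2 and 2 between GFP libraries (WM164 to SKMEL28, WM164 to A375, SKMEL28 to A375). On either TPM scale, where the pseudocount shrinks low values, SKMEL28 had 0 enzymes called and 2 at the adjusted p alone, and responses of SKMEL28 and A375 differed for 0. Between GFP libraries 0 were called for WM164 to SKMEL28 and 4 for WM164 to A375 on log2(TPM + 1), and 2 and 5 on log2(TPM + 0.1). In SKMEL28, DESeq2, no count filter and the replicate block each left 1 enzyme called, and all 18 libraries in 1 model called 1 in A375, HS3ST1. For the other pathway lists, 4 genes were called in SKMEL28 on unfiltered log2(TPM + 1), and in A375 0 on every TPM scale and 7 in the model of all 18 libraries. Without single libraries, called enzymes ranged from 1 to 2 in SKMEL28, from 1 to 2 for the responses of SKMEL28 and A375, and called list genes from 1 to 3 in A375. Changes of sign were these. On log2(TPM + 1), filtered or not, HS3ST3B1 had a difference of responses of 0.12 between SKMEL28 and A375, HS3ST3A1 -0.34 and HS2ST1 -0.11 in A375, and NDST1 0.0587 in WM164. On log2(TPM + 0.1) the last 3 were -0.38, -0.15 and 0.0633, and SULF2 in WM164 was -0.21 on unfiltered log2(TPM + 1). HS2ST1 in WM164 was -0.000755 with DESeq2, -0.000772 with its size factors and -0.0067 with no count filter. Without single libraries, values that crossed 0 ranged from -0.082 to 0.175 for HS3ST3A1, -0.0376 to 0.083 for HS2ST1 and -0.175 to 0.0279 for NDST1 in A375, -0.0508 to 0.0581 for HS2ST1 and -0.202 to 0.371 for SULF2 in WM164, and -0.207 to 0.0403 for HS6ST1 in SKMEL28. Samples of the same number did not deviate together (r of -0.033 to 0.012). This cannot show whether they were cultured or prepared together, which the labels do not say. The block lost 4 of 52 values, HS3ST1 in SKMEL28 (adjusted p = 0.0572) and in both differences of responses (0.0911 and 0.0576) and HS3ST5 in WM164 (adjusted p = 0.0894), and changed no other call. Low counts limit HS3ST2, SULF1 and HS3ST1, and HS3ST3B1 where it is nearly absent.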
